A study of Mus musculus with 4 samples.

Results

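Border-associated macrophages live at the edges of the brain, in the meninges, around blood vessels and in the choroid plexus, and are known for taking up material through scavenger and lectin receptors. They are close relatives of microglia, the macrophages of the brain tissue itself, and both carry CD45 and CD11b on their surface. They are commonly told from microglia by more CD45 and by the mannose receptor, and by a set of marker genes that microglia of a healthy brain hardly use. These data hold 9 such marker genes, Mrc1, Cd163, Lyve1, Pf4, Cbr2, F13a1, Stab1, Folr2 and Cd209f, which were taken by symbol. All 9 were found among 56832 gene rows, and they were read in every library of sorted microglia.

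The series set myeloid cells that grew in the brain from transplanted, GFP-labelled blood-forming cells after CSF1R inhibition beside the brain's own microglia. The graft-derived cells are not analysed here, and the libraries described are the microglia. They form 1 group of 4 libraries, numbered replicates 1 to 4, from brains of female C57BL/6 mice with no intervention, which the design text calls littermates without a transplant. Brain cells were sorted as CD11b-positive with low to intermediate CD45, a gate that uses no marker specific to border-associated macrophages. Since these macrophages are commonly told from microglia by more CD45, the gate may leave out part of them, and how many passed is not known. Total RNA was made into libraries with a low-input kit. The labels give no age and do not say whether each library is a separate mouse, so p-values measure only the spread between these libraries, which may be technical.

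The libraries held 20360121 to 23292655 reads assigned to genes. Levels are in CPM, counts per 1e6 of those reads, and 1 count was worth 0.0429 to 0.0491 CPM. The label was checked against 12 microglial markers, P2ry12 among them, and all 12 reached 10 CPM in every library. The libraries did not look alike. Genes with a count numbered 14850, 18978, 18431 and 13944 in replicates 1 to 4. A list of 10 immediate early genes, known to respond quickly to a stimulus, took 0.424%, 5.23%, 4.51% and 0.438% of counts. The 12 microglial markers summed to 59423, 31767, 32930 and 62369 CPM. Ptprc, the gene of CD45, gave 286, 528, 584 and 299 CPM, and Itgam, the gene of CD11b, gave 365, 352, 259 and 190 CPM.

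The border macrophage markers were present, but together they made up a small share of the reads. Of the 9 genes, 8 reached 1 CPM in every library, beside 14.8% of all gene rows. At the higher level of 10 CPM there were 5, Mrc1, Cd163, Pf4, F13a1 and Stab1, beside 10.1%, and 0 reached 100 CPM in every library, beside 2.01%. Summed, they made 251, 760, 827 and 379 CPM in replicates 1 to 4. That is 0.0251%, 0.0760%, 0.0827% and 0.0379% of assigned reads. Single members were not all low among the genes with a count. Over the libraries, Mrc1 lay at percentiles 82.6 to 96.4 of these genes and Stab1 at 82.8 to 95.4. Folr2 lay at 34.8 to 61.3 and Lyve1 at 9.52 to 80.7. In bulk RNA, fewer cells of a type and less RNA per cell cannot be told apart, and neither can a few marker-rich cells and a little marker RNA in many cells.

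**Figure D1:**
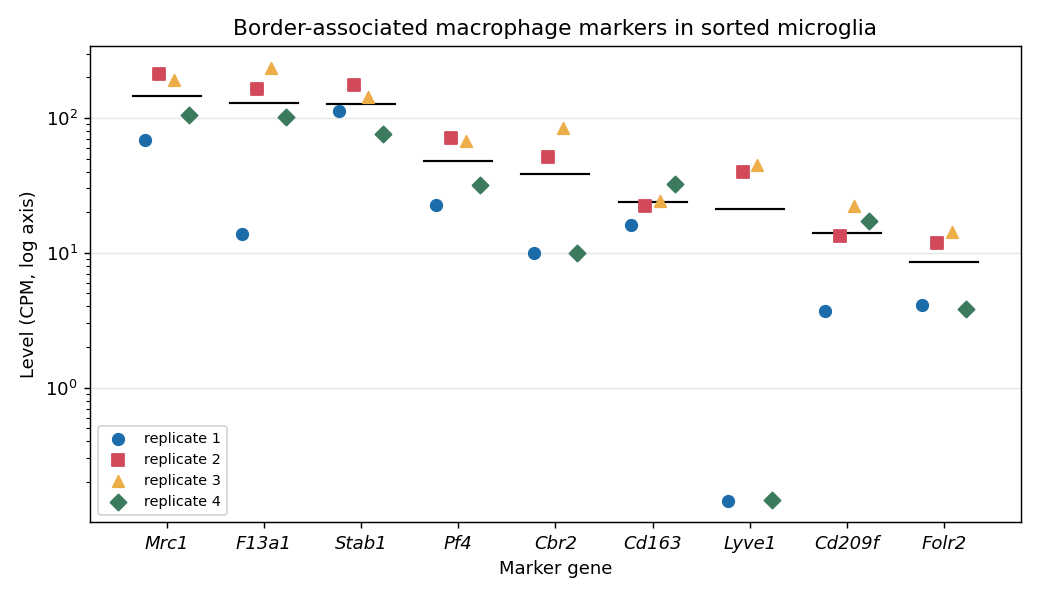
Level of each border macrophage marker gene in CPM (log axis) in the 4 libraries of sorted microglia, with a symbol for each replicate and a black bar at the mean. Mrc1, Pf4, Stab1, F13a1, Cbr2, Folr2 and Lyve1 had their 2 highest values in replicates 2 and 3, and Lyve1 fell to 3 counts in replicates 1 and 4.

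The scavenger and endocytic receptors come first. Mrc1, the mannose receptor CD206, which takes up glycoproteins, stood at 68.9, 213, 191 and 106 CPM in replicates 1 to 4, a mean of 145 ± 68.6 (SD, n = 4). Stab1, the scavenger receptor stabilin-1, stood at 112, 175, 143 and 75.9 CPM, a mean of 127 ± 42.4. Both were highest in replicate 2, but replicate 1 was the lowest library for Mrc1 and replicate 4 the lowest for Stab1. Cd163, the receptor that clears haemoglobin bound to haptoglobin, stood at 16.2, 22.2, 24.3 and 32.6 CPM, a mean of 23.8 ± 6.78. It was the only member highest in replicate 4, and its highest library exceeded its lowest by 2.01-fold, the smallest such ratio of the 9 genes. Folr2, folate receptor beta, was low, at 4.08, 11.8, 14.4 and 3.83 CPM, a mean of 8.52 ± 5.38, with replicates 2 and 3 above replicates 1 and 4.

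The annotation bears on Folr2. In the GENCODE M21 gene models, 975 bases of its 1546 exon bases lie over exons of Gm10602, a gene on the opposite strand, which had 39, 34, 42 and 2 counts. The strand setting of the counting is not given in the sources used here, so reads of this stretch may have been set aside as ambiguous or given to either gene. Stab1 shares 112 exon bases with Nt5dc2 and F13a1 shares 74 with Gm30489, also on opposite strands, and the other 6 members share none.

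Lyve1 and Cd209f bind sugars. Lyve1, a hyaluronan receptor of perivascular macrophages and of lymphatic vessels, gave 3, 891, 1042 and 3 counts in replicates 1 to 4, or 0.146, 39.5, 44.7 and 0.147 CPM. Replicate 3 thus exceeded replicate 1 by 307-fold, with an exact 95% counting interval of 105 to 1492, and replicate 2 exceeded replicate 4 by 268-fold, with an interval of 91.4 to 1301. Every other member had 76 counts or more in each library. Cd209f, a C-type lectin of the family of DC-SIGN, stood at 3.69, 13.3, 22.3 and 17.2 CPM, a mean of 14.1 ± 7.88 (SD, n = 4). Its replicate 4 lay between replicates 2 and 3, unlike Lyve1.

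Among the secreted proteins and enzymes, Pf4, the chemokine platelet factor 4 (CXCL4), stood at 22.6, 71.0, 67.6 and 31.9 CPM, a mean of 48.3 ± 24.6 (SD, n = 4). F13a1, the catalytic subunit of coagulation factor XIII, which cross-links fibrin, stood at 13.7, 163, 236 and 101 CPM, a mean of 129 ± 94.3. Cbr2, a carbonyl reductase, stood at 9.90, 51.3, 83.5 and 9.92 CPM, a mean of 38.7 ± 35.7. F13a1 and Cbr2 were both highest in replicate 3, but Cbr2 was as low in replicate 4 as in replicate 1, whereas F13a1 was far higher in replicate 4 than in replicate 1. The Cbr2 mean was 23.7 CPM without replicate 3, and the Lyve1 mean of 21.1 CPM was then 13.3.

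Pf4 and F13a1 are also genes of platelets and their precursors, and other platelet genes were read beside them. Ppbp, the platelet chemokine most like Pf4, had 0, 0, 40 and 0 counts in replicates 1 to 4, and Gp1bb and Gp6 had 0 counts in all 4 libraries, which allows up to 0.129 to 0.147 CPM. Of the 9 platelet markers, 1 reached 1 CPM in every library. That was Gp9, at 48.4, 28.4, 23.4 and 15.4 CPM, highest where Pf4 was lowest. The platelet list summed to 52.5, 30.8, 29.9 and 27.2 CPM. Lymphatic vessels also use Lyve1. Of 6 lymphatic markers 0 reached 1 CPM in every library, and Ccl21a, Reln and Mmrn1 had 0 counts in all 4. The list summed to 3.74, 10.8, 15.97 and 15.9 CPM, with Prox1 at 3.64, 8.33, 15.1 and 0.0491 CPM and Pdpn at 0.0971, 1.68, 0.902 and 15.9 CPM.

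Across the 9 genes, 7 had replicates 2 and 3 as their 2 highest libraries, the exceptions being Cd163 and Cd209f. Among the 8 members with enough reads in every library for the gene-by-gene test, the count was 6, beside 19.6% of the 9075 genes that passed the same filter. The counts were 7 and 6 also with TMM scaling, with DESeq2 size factors and without the immediate early genes in the totals, beside 22.7%, 23.2% and 21.9% of genes. Replicate 1 or 4 was the lowest library for each member. Replicate 4 was lowest for Stab1 and Folr2, and Lyve1, at 3 counts in both, and Cbr2, at 204 and 202 counts, were alike in replicates 1 and 4. The same 2 highest libraries were shared by 10 of 10 immediate early genes, 5 of 7 oligodendrocyte markers and 0 of 12 microglial markers. Among markers that passed the filter, 3 of 5 astrocyte, 3 of 5 blood endothelial, 2 of 3 fibroblast and 0 of 8 neutrophil markers had them. The part of these other lists in the marker levels was not tested.

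Whether a marker varied between libraries more than genes of its level usually do was tested with edgeR's quasi-likelihood dispersions. Lyve1 did not pass the filter on low counts. No gene was called at an adjusted p under 0.05, which is 0 of 9075 genes (0%) and 0 of 8 members, and DESeq2 marked 0 dispersion outliers. At an unadjusted p under 0.05 there were 390 genes (4.3%) and 2 members. F13a1 stood 3.91 above the trend on the log2 scale of dispersion (unadjusted p = 0.0098, edgeR adjusted p = 0.94) and Cbr2 stood 2.71 above it (unadjusted p = 0.045, edgeR adjusted p = 0.94). Without replicate 1, F13a1 gave 1.76 and unadjusted p = 0.17, and 0 members had an unadjusted p under 0.05. Without replicate 3, F13a1 alone did, and without replicate 4 there were 3, Mrc1 (unadjusted p = 0.027), Cbr2 (0.0094) and F13a1 (0.0012), each with an edgeR adjusted p of 0.83 to 0.95. Mrc1 stood 2.05 above the trend, Pf4 1.159, Stab1 1.00, Cd209f 0.72 and Folr2 0.67, each with an edgeR adjusted p of 0.94 to 0.96. Cd163 was at -1.80, the only tested member below the trend. The median of the 8 tested members was 1.08 and that of all 9075 genes -0.08. With no filter beyond 10 counts in all, Lyve1 could be fitted and stood 3.98 above the trend (unadjusted p = 0.027, edgeR adjusted p = 0.75). In that fit F13a1 stood at 3.78, and Cbr2 had an unadjusted p of 0.092 (edgeR adjusted p = 0.75).

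The shared highs of replicates 2 and 3 do not say whether the markers kept a fixed proportion to each other. This was read from the SD over libraries of the log2 ratio of 2 genes, with 0.5 CPM added to each, where a small SD means that they kept 1 ratio. Mrc1 and Pf4 were the closest of the 36 pairs. Mrc1 exceeded Pf4 in CPM by 3.05, 3.004, 2.83 and 3.31 times in replicates 1 to 4, and the SD of the log2 ratio was 0.09. Of all pairs of the 8175 genes with a mean of 10 CPM or more, 0.212% had a smaller SD. That share refers to any 1 pair, whereas Mrc1 with Pf4 was picked as the closest of 36. Folr2 followed, at an SD of 0.31 to Pf4 and 0.39 to Mrc1, with 6.39% and 11.3% of all pairs smaller. Stab1 came next, at 0.55 to both Pf4 and Mrc1, with 21.8% and 22.0% of all pairs smaller. Pf4, Mrc1, Folr2 and Stab1 thus held the 6 smallest SDs, up to 0.57 for Stab1 with Folr2.

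**Figure D2:**
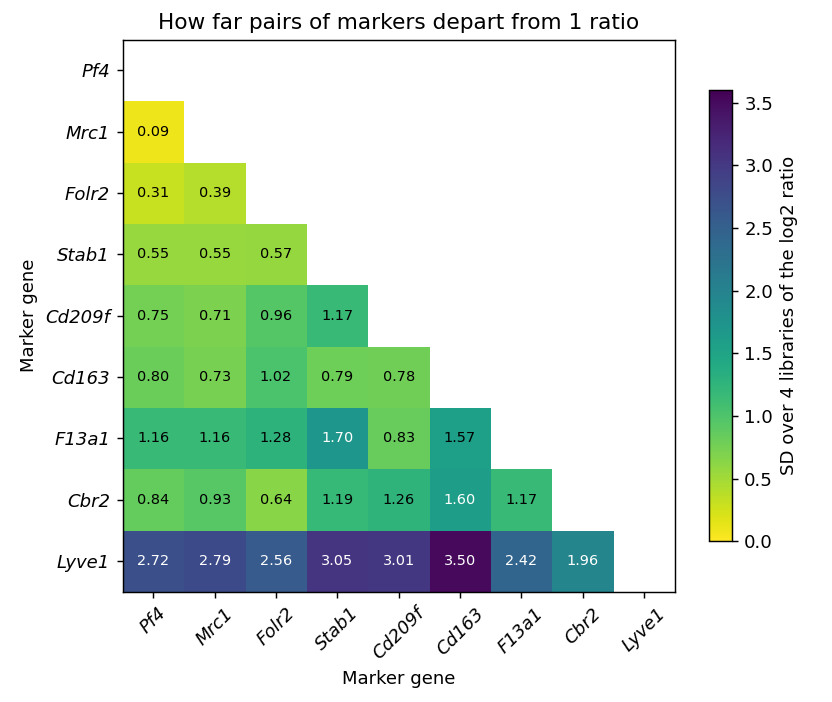
SD over the 4 libraries of the log2 ratio between each pair of border macrophage marker genes, with the value in each square and darker colour for a larger SD. Pf4, Mrc1, Folr2 and Stab1 fill the upper left with values of 0.09 to 0.57, and the Lyve1 row holds 1.96 to 3.50.

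The other members did not keep to that proportion. As a log2 ratio to Mrc1, F13a1 lay at -2.29, -0.39, 0.30 and -0.06 in replicates 1 to 4, so that it was far below Mrc1 in replicate 1 and close to it in the others. Cbr2 lay at -2.74, -2.04, -1.19 and -3.35, highest in replicate 3 and lowest in replicate 4. Cd163 lay at -2.05, -3.24, -2.95 and -1.68, highest in the libraries where the Mrc1 level was lowest. Cd209f lay at -4.05, -3.95, -3.07 and -2.58, and Lyve1 at -6.75, -2.42, -2.08 and -7.36. These ratios compare reads, not transcripts, because they are not corrected for length.

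**Figure D3:**
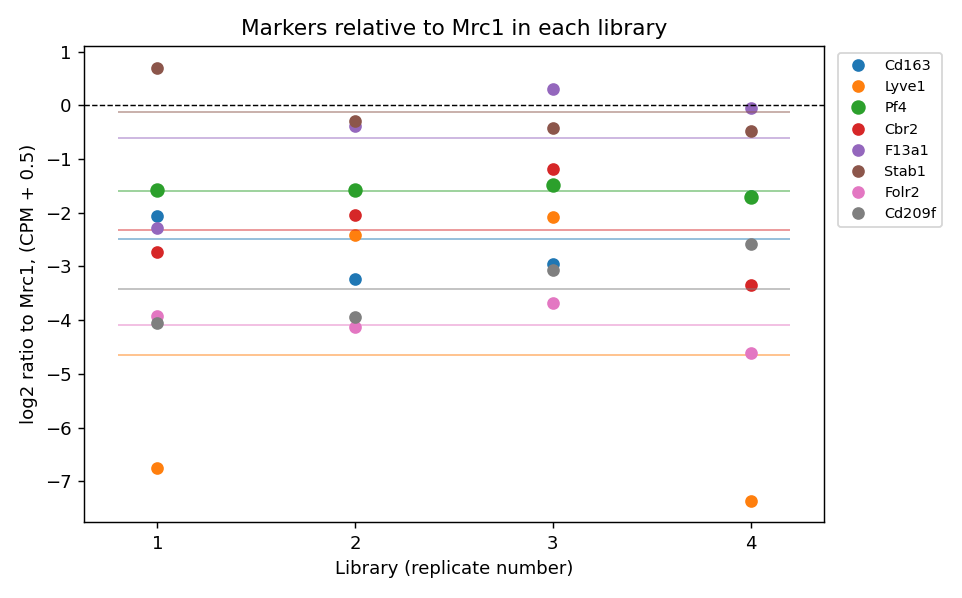
Log2 ratio of each marker to Mrc1 (CPM + 0.5, not per length) in the 4 libraries, with a point per library and a line at the mean over libraries. Pf4 stayed between -1.71 and -1.49, whereas Lyve1 ran from -7.36 to -2.08.

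Over the 36 pairs the median SD was 1.09, and over the 28 pairs without Lyve1 it was 0.84. All pairs of genes with a mean of 10 CPM or more had a median of 0.99, and the 66 pairs of microglial markers had 0.37. The order of members and all pairs depended on the libraries and genes used. Without replicate 4, the 28 pairs gave 0.66 and all pairs 0.59. Without replicate 1, the 36 pairs gave 0.881 and all pairs 0.906. With all genes averaging at least 1 CPM, all pairs gave 1.48, above the 36 pairs. The 108 pairs of a member with a microglial marker had a median of 1.39.

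Promoters of Mrc1 and Pf4, the pair that kept its ratio, are shown with that of Cd163, which had its own order of libraries, and that of F13a1, the farthest above the trend of the 8 members that passed the filter. They are the 250 bases before the gene start in RefSeq, on build GRCm38.p6, read 5′ to 3′ on the strand of the gene. The authors' build is GRCm39, so these positions are not those of their files. Capitals mark GAGGAA or its reverse complement TTCCTC, a core of sites for PU.1, the lineage factor of macrophages. F13a1 has 2 starts in the table, and the upstream one is shown.
Mrc1, chr2:14229164-14229413, plus strand: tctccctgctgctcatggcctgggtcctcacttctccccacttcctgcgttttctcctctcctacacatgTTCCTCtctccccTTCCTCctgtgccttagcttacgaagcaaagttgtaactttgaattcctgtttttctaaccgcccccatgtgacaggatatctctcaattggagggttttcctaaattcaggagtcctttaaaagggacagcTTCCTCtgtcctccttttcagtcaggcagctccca
Pf4, chr5:90772185-90772434, plus strand: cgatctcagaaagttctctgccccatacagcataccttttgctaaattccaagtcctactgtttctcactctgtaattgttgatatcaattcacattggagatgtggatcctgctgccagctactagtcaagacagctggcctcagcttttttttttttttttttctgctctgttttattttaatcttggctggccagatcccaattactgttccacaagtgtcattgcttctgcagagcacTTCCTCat
Cd163, chr6:124304401-124304650, plus strand: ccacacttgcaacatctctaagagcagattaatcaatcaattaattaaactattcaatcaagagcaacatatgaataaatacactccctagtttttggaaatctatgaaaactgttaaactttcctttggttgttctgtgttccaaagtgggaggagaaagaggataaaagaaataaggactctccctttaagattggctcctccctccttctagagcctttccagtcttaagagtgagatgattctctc
F13a1, chr13:37050245-37050494, minus strand: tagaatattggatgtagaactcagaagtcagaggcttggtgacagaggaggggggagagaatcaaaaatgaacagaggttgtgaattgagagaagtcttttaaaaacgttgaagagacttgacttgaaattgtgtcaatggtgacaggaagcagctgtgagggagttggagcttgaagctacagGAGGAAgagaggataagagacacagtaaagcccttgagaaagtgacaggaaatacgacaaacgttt

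The table held promoters for 8 of the 9 members, 10 windows in all. GAGGAA, searched on both strands, was in a window of 5 of these 8 genes, Mrc1, Pf4, F13a1, Stab1 and Cbr2, and in 5 of the 10 windows. Of all 32851 windows in the table, 23.3% held it. Mrc1 held 3 copies, the nearest starting 35 bases before the gene start, and Pf4 held 1, starting 8 bases before it. Other motifs were searched on both strands. TGCTGA, part of the site of MAF factors, was in windows of Folr2 and Stab1 and in 16.1% of all windows. TGANTCA, the AP-1 site, was in windows of Folr2 and Cd209f and in 6.75% of all, and TATAAA, the TATA box, was in that of Cd209f, 29 bases before the start, and in 12.4% of all. A match is a description of the letters, not a site.

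Levels of different genes were compared per kb of exon, since long transcripts give more reads. Pf4, whose exons span 721 bases, led at 66.9 ± 34.1 CPM per kb (SD, n = 4). Next by mean log2 level per kb came Mrc1 at 22.7 ± 10.8, Cbr2 at 29.1 ± 26.9, F13a1 at 19.1 ± 13.99 and Stab1 at 12.3 ± 4.12 CPM per kb. Cd209f at 7.11 ± 3.96, Folr2 at 5.51 ± 3.48, Cd163 at 4.36 ± 1.24 and Lyve1 at 7.24 ± 8.33 followed. Pf4 exceeded each of the 8 other members in all 4 libraries, and it exceeded Mrc1 by 1.54 ± 0.09 on the log2 scale per kb. The other 7 neighbours in this order did not keep 1 order over the libraries. Of all 36 pairs, 19 kept 1 order in every library, among them Mrc1 over Cd163 by 2.28 ± 0.74, Mrc1 over Folr2 by 2.14 ± 0.44 and Stab1 over Cd163 by 1.47 ± 0.80. For Pf4 over Mrc1 a two-sided permutation test over all sign changes (exact) gave p = 0.125, or 1 after adjustment over the 8 neighbours, and 0.125 is the smallest p that 4 libraries allow. The lead of Pf4 over Mrc1 rests on the length correction, without which the log2 ratio was -1.60.

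A further 30 genes known from border-associated macrophages were read beside the markers. In every library, 19 of these were at 1 CPM or more and 13 at 10 CPM or more. Several are known to be used by microglia or other cells too. The iron exporter Slc40a1 gave 386, 173, 151 and 198 CPM, the prostaglandin dehydrogenase Hpgd 391, 237, 184 and 382 CPM, and the transcription factor Maf 283, 154, 149 and 140 CPM. These 3 were highest in replicate 1, where the 9 markers summed to least. The list as a whole summed to 2516, 2557, 2497 and 2368 CPM, nearly level across the libraries.

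Others had replicates 2 and 3 as their 2 highest libraries, like most markers. The endocytic adaptor Dab2 gave 67.0, 205, 221 and 43.5 CPM, and the C-type lectin Clec4n (dectin-2) gave 8.83, 29.2, 30.1 and 14.2 CPM. Tgfbi, an extracellular matrix protein, gave 35.7, 79.1, 63.4 and 21.5 CPM, and the lectin Mgl2 gave 46.3, 63.4, 94.7 and 38.998 CPM. Ms4a7, a membrane protein often used to tell these macrophages from microglia, gave 50.6, 58.7, 71.4 and 83.5 CPM, in the same order of libraries as Cd163. Wfdc17 had that order as well, at 28.8, 42.2, 47.7 and 55.7 CPM. Gas6, a ligand of TAM receptors, stood at 150 ± 31.9 CPM (SD, n = 4). Cd36, a fatty acid receptor, gave 25.8, 25.7, 30.3 and 102 CPM and so stood apart in replicate 4. Of the 20 genes of this list that passed the filter, 0 were called at an edgeR adjusted p under 0.05 and 1 had an unadjusted p under 0.05. That gene was Dab2, 3.15 above the trend on the log2 scale (unadjusted p = 0.026, edgeR adjusted p = 0.94).

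Several genes of resident border populations had no count in some libraries. Timd4, a phosphatidylserine receptor, had 0, 84, 121 and 0 counts in replicates 1 to 4, present in the same 2 libraries in which Lyve1 was high. Some genes of other cells had this split too, and its share over all genes was not counted. Astrocyte Gfap had 1, 351, 253 and 1 counts, neuronal Snap25 had 1, 167, 325 and 2, and Nkg7 had 1, 56, 66 and 0. The chemokine gene Ccl8 had 0, 134, 199 and 91 counts. Siglec1, the sialoadhesin of many tissue macrophages, had 253, 35, 0 and 0 counts, and Vsig4 had 0, 0, 38 and 0. In all, 6 of the 30 genes had 0 counts in at least 1 library, which allows up to 0.129 to 0.147 CPM there.

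The MHC class II genes, which a subset of border macrophages uses strongly and other cells use too, did not have the library order of most markers. H2-Ab1 gave 699, 694, 995 and 1042 CPM, H2-Aa gave 327, 369, 390 and 641 CPM and H2-Eb1 gave 241, 329, 339 and 458 CPM in replicates 1 to 4. H2-Aa and H2-Eb1 had the order of libraries seen for Cd163. The invariant chain gene Cd74 gave 1297, 1802, 2348 and 1060 CPM, highest in replicates 2 and 3, and it was the only 1 of 7 listed genes with those as its 2 highest.

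Likeness over 4 libraries is shared by many genes, so the nearest ones are named as a description only. Among the 8175 genes with a mean of 10 CPM or more, the gene whose profile was nearest to Mrc1 was Ms4a4a, a membrane protein gene of the family of Ms4a7, at 6.45, 20.7, 18.2 and 9.87 CPM. The SD of their log2 ratio was 0.02, and Mrc1 exceeded it by 10.3 to 10.7 times in each library. Next to Mrc1 came Nucks1 and Ap3b1, and Ap3b1 was also second to Pf4, behind Smarcad1. Nearest to Cd163 was Gm5905, followed by H2-Eb1 (SD 0.04) and Nap1l1. Nearest to Stab1 were Chka and Caprin1, to Folr2 Glul, Cyb5r3 and mt-Cytb, and to Cd209f Prkci, Hapln2 and Lyar.

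For the most variable members the nearest genes were farther away. Cbr2 had Tnks at an SD of 0.25, then Cdkn1a and Id2, and F13a1 had Clic4 at 0.21 and Dnajc13 at 0.23 among its nearest. Lyve1 had Ifi209 at 0.15, then Mir22hg and Ehd1, 3 genes that also had at most 3 counts in replicates 1 and 4. To the mean profile of the 8 tested members, the nearest were Gabarapl1, Gm12164, Clec4n, Acvr1 and Zfp622, with SDs of 0.04 to 0.11. Clec4n, from the list of other border macrophage genes, was the third of these. The 19 genes of that list with a mean of 10 CPM or more had a median SD of 0.80 to this mean profile, with a range of 0.10 to 2.03, beside 1.13 for all 8175 genes. The MHC class II genes had a median of 0.90, oligodendrocyte markers 0.91, astrocyte markers 1.06 and the 12 microglial markers 1.29.

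Relatives of the members were mostly lower or absent. Stab2, the stabilin of sinusoidal vessels, had 1, 0, 0 and 0 counts, where Stab1 had 1545 or more in each library, and F13b, the carrier subunit of factor XIII made in liver, had 0 in all 4. Cd5l, a scavenger receptor relative of Cd163, and Cd209e also had 0 counts in all 4 libraries. Folr1, the folate receptor of choroid plexus epithelium, had 2, 157, 341 and 846 counts, highest in replicate 4, where Folr2 was lowest. Mrc2 gave 32.8, 8.95, 2.705 and 13.9 CPM, lowest in the 2 libraries where Mrc1 was highest. Cd44, another hyaluronan receptor, gave 4.66, 17.2, 22.4 and 29.2 CPM. Cbr1 gave 52.7, 38.5, 40.5 and 47.0 CPM, Cbr3 8.93, 6.82, 9.53 and 22.1 CPM and the related reductase Dcxr 49.7, 28.1, 42.0 and 70.5 CPM. Cxcl2, a chemokine and an early response gene, gave 14.7, 158, 144 and 15.6 CPM, and the transglutaminase Tgm2 gave 55.3, 128, 74.6 and 0.589 CPM.

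The Cd209 genes lie in a cluster of similar copies, so reads may be split or dropped between them. Cd209a, used by dendritic cells, gave 14.2, 12.5, 15.4 and 101 CPM, highest in replicate 4. Cd209b gave 8.30, 1.06, 3.82 and 0.0491 CPM and Cd209g gave 2.72, 3.06, 6.53 and 0.540 CPM, both lowest in replicate 4, where Cd209f was not low.

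Markers of other cells are given beside the border macrophage markers. The gate on CD11b and on low to intermediate CD45 is one that should remove most lymphocytes and red blood cells, and most blood monocytes and neutrophils, which carry more CD45. Monocyte markers summed to 126, 80.9, 84.2 and 215 CPM, led by Chil3 and Ccr2, and 4 of 8 reached 1 CPM in every library. Neutrophil markers summed to 1499, 285, 276 and 2403 CPM, led by S100a8 and Ngp, with 8 of 8 at that level. Both lists were lowest in replicates 2 and 3, the libraries in which most border macrophage markers were highest. B cell markers, led by Cd79b and Cd79a, summed to 87.8, 19.1, 25.8 and 61.6 CPM with 1 of 6 at 1 CPM in every library and Ms4a1 at 0 counts in all 4. Red blood cell markers, led by Hbb-bs and Hba-a1, summed to 42.4, 19.9, 17.1 and 76.9 CPM, with 3 of 6 at that level. T and NK cell markers, led by Nkg7 and Trac, summed to 0.0485, 6.87, 6.78 and 0.0491 CPM, with 0 of 7 at that level. Dendritic cell markers, led by Cd209a and Zbtb46, summed to 28.7, 27.6, 27.6 and 102 CPM, with 1 of 7 at that level and Xcr1 at 0 in all 4.

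Cells of the brain's borders and of its tissue were also traced. Meningeal and perivascular fibroblast markers summed to 41.0, 97.8, 94.5 and 73.4 CPM, with 2 of 10 at 1 CPM in every library, led by Cldn11, which oligodendrocytes share, and Igfbp2. Mural cell markers, led by Rgs5 and Vtn, summed to 24.5, 126, 126 and 171 CPM with 2 of 9 at that level. Blood endothelial markers, led by Itm2a and Pecam1, summed to 95.1, 196, 159 and 123 CPM with 3 of 8 at that level. Choroid plexus markers summed to 453, 951, 960 and 2078 CPM with 2 of 8 at that level, nearly all from Ttr at 441, 883, 878 and 2008 CPM, followed by Kcnj13. Oligodendrocyte markers, Mbp among them, summed to 486, 1789, 1819 and 587 CPM with 7 of 7 at that level. Astrocyte markers, led by Slc1a3 and Aldoc, summed to 315, 433, 504 and 240 CPM with 5 of 7, and neuron markers, led by Snap25 and Tubb3, to 0.0485, 11.6, 22.3 and 0.147 CPM with 0 of 7.

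Replicate 1 was lowest for the border macrophage, mural, blood endothelial and choroid plexus sums, and also for the oligodendrocyte and neuron sums. It was lowest for the fibroblast sum too, through Cldn11 at 1.70, 54.9, 50.6 and 41.6 CPM, whereas the fibroblast gene Lum was highest there, at 17.5, 5.67, 4.08 and 0.0982 CPM. Replicate 4 was highest for the mural and choroid plexus sums, but not for the border macrophage sum. The mural sum there came mostly from Rgs5 and Vtn, at 72.3 and 61.2 CPM, and the choroid plexus sum from Ttr. Other markers of these lists went the other way, and 4 of 9 mural and 4 of 8 choroid plexus markers had replicates 2 and 3 as their 2 highest libraries. The part of these cells in the marker levels was not tested.

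**Figure D4:**
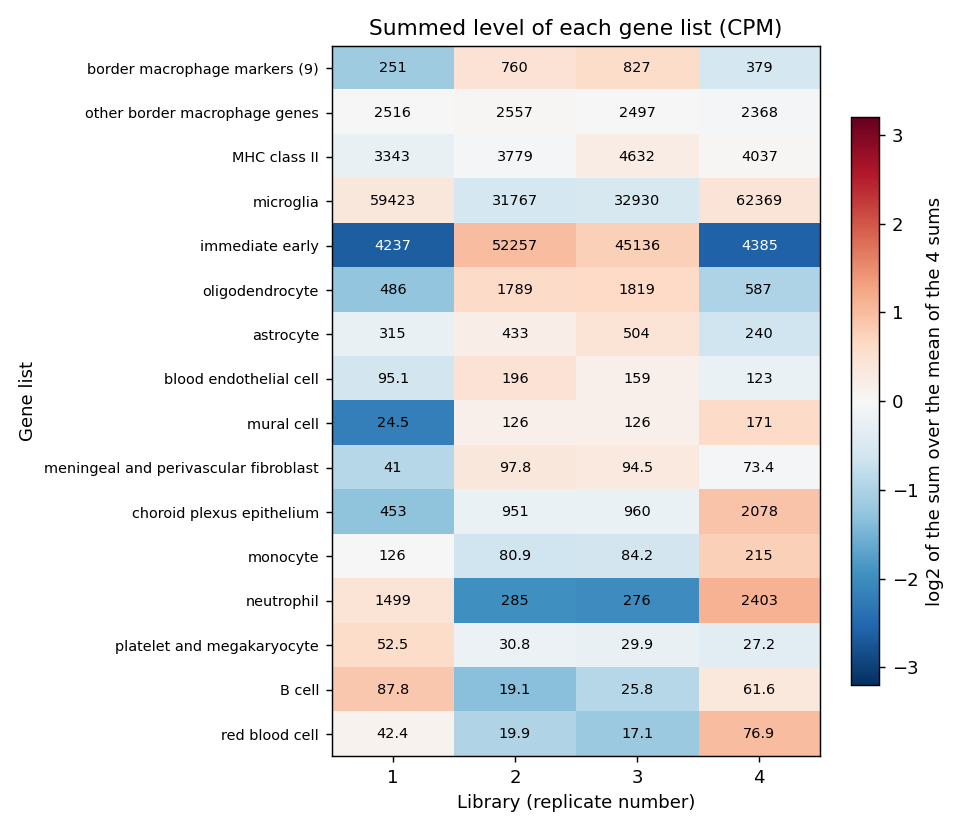
Summed level in CPM of the 9 border macrophage markers and of 15 other gene lists in the 4 libraries, coloured by the log2 of each sum over the mean of its 4 sums. The border macrophage sum was 251, 760, 827 and 379 CPM. The immediate early, oligodendrocyte, astrocyte, blood endothelial and fibroblast sums were also highest in replicates 2 and 3. The microglia, neutrophil, monocyte, B cell and red blood cell sums were lowest there.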

How the data were processed

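The authors deposited raw read counts for each gene, in 1 file for each of 4 libraries. Per the submitters' processing notes, the tools were STAR 2.7.10a, SAMtools 1.16.1 and HTSeq 0.11.2, on build GRCm39. The sources used here do not name the annotation, strand setting or read filters. Reads that HTSeq gave to no gene, listed in 5 last rows, were 20.8% ± 1.28 (SD, n = 4) of the listed reads and were left out. CPM used the total assigned to genes. Exon lengths were unions of exons in GENCODE M21 (GRCm38), used as lengths only. A count of 0 allows up to 3 counts, and intervals are exact at 95%. Both cover counting error alone, since PCR copies were not told apart by molecular identifiers.

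The variability test used edgeR 4.0.16 in R 4.3.3, with filterByExpr at a minimum count of 10, TMM, an intercept-only quasi-likelihood fit, an upper-tail F test of each gene's dispersion against the trend, and Benjamini-Hochberg adjustment over 9075 genes. It was tested on simulated data in which some genes were changed 4-fold or 16-fold between libraries. At the dispersion trend of the real libraries, it called 1.04% of the 4-fold and 35.5% of the 16-fold genes. With dispersion set well below that trend, it called 57.7% and 100%. At the real trend most changed genes were thus missed, so that the lack of calls does not show that genes were stable. DESeq2 1.42.0 gave other size factors and dispersion outliers. Python 3.11.15 with scipy 1.17.1 did the rest.

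The members, gene lists and motifs were chosen with earlier results of these data known. The genes named are all members and their relatives with counts in every library or in none, other border macrophage genes averaging 20 CPM or more or past the test, the 2 highest and any absent markers of each cell list, and the nearest genes by profile (3 per member, 5 for the mean). Of the nearest genes, 2 listed only by an identifier are left unnamed. A few genes that this rule would name are not reported here. Timd4, Ccl8, Siglec1, Vsig4, Stab2, Ppbp, Lum, the MHC class II genes and the genes overlapping members were added after their values were seen.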

Additional observations from a re-analysis of the deposited data

Results flagged for a closer look

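Of 30 sets of 4 values examined, the 9 members, their sum and 20 sums of other lists, 2 had a library far from the rest, where chance flags about 1 in 20. None of the 9 members was among them. This measure looks for 1 library apart from the rest, so it cannot flag a split of 2 high and 2 low libraries. Lyve1, with 3, 891, 1042 and 3 counts, had a gap of 0.118 of its range. The dendritic cell list had a gap of 0.986 of its range between replicate 4 and the next library, with sums of 28.7, 27.6, 27.6 and 102 CPM, nearly all from Cd209a. The platelet and megakaryocyte list had a gap of 0.858 of its range below replicate 1, with sums of 52.5, 30.8, 29.9 and 27.2 CPM, mostly from Gp9.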

How the results depend on the processing

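The mean CPM of each of the 9 members moved by less than the SD between libraries with TMM scaling and with DESeq2 size factors. The same held with immediate early genes left out of the totals (added after the data were seen). With 1 of 4 libraries left out a mean cannot move by as much as that SD, so this measure could not show a change there. The means then ranged from 23.7 to 48.3 CPM for Cbr2, 13.3 to 28.1 for Lyve1 and 110 to 144 for Stab1. The median over members of 38.7 CPM ranged from 23.7 to 48.3 with a library left out. The variability test called 0 members in every setting. Its log2 ratio to the trend changed sign for Cd209f, to -0.030 with no filter beyond 10 counts in all and within -1.75 to 1.74 with a library left out, and for Folr2, to -0.96 with that looser filter. The median SD over the 36 pairs ranged from 0.87 to 1.25 with a library left out. Of the 8 neighbours in level per kb, 1 kept its order in every library, 2 did so without length correction, and 1 to 3 with a library left out. Without length correction the log2 ratios reversed to -1.60 for Pf4 over Mrc1, -1.75 for Cbr2 over F13a1, -0.50 for F13a1 over Stab1 and -1.68 for Folr2 over Cd163. With a library left out they ranged from -0.25 to 0.49 for Mrc1 over Cbr2, -0.30 to 0.96 for F13a1 over Stab1, -0.14 to 0.63 for Cd209f over Folr2 and -0.17 to 0.60 for Folr2 over Cd163. The longest coding transcript as length (added after the data were seen) reversed none. No paired analysis was possible because the libraries form 1 group.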
